A study of Mus musculus with 11 samples.

Results

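Nodal is a secreted ligand of the TGF-beta family, and the genes described here are that ligand and the proteins that carry, assist or oppose its signal. The 8 genes, Nodal, Lefty1, Lefty2, Tdgf1, Foxh1, Smad2, Smad3 and Skil, were taken by symbol from the platform annotation of the arrays. All 8 were found, each with 1 transcript cluster (the array's unit for a gene or part of one), among 19935 genes measured. The rule that names them uses symbols and no measured value, but the genes were chosen with earlier results of these data known. The counts of called genes below are to be read with that limit.

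Nodal binds type I and type II activin receptors together with the co-receptor Cripto, the product of Tdgf1. The receptors phosphorylate SMAD2 and SMAD3, which enter the nucleus with SMAD4 and reach target genes through partners such as FOXH1. Lefty1 and Lefty2 encode secreted antagonists that are themselves targets of the pathway, so that Nodal signalling limits itself. In mouse embryonic stem cells (ESCs) the pathway is active without added ligand, and in the embryo it patterns the epiblast and opposes early neural differentiation.

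The study compared mouse ESCs that carry the label Bmpr1a-/-, and so are without one of the receptors for bone morphogenetic proteins, with wild type ESCs of the E14 line. Cells were sampled in ESC medium or after 3 days in N2B27, which contains no serum and lets ESCs exit pluripotency. The 4 groups were Bmpr1a-/- cells in N2B27 (n = 3), control cells in N2B27 (n = 3), Bmpr1a-/- cells in ESC medium (n = 2, numbered 2 and 3) and control cells in ESC medium (n = 3). The treatment label lists 3 Bmpr1a-/- lines without tying a line to an array, and all controls are of 1 line, so genotype and cell line cannot be told apart. No label states that the samples within a group were grown as separate cultures, so the p-values below reflect variation among these arrays only, and that variation may be technical.

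Expression was measured on 11 one-colour arrays, and each value is a log2 value relative to a baseline of the gene's own. A value of exactly 0 marks an array that sits on this baseline. Values can be compared between arrays for 1 gene, but they hold no absolute level, so no gene is ranked against another, a marker cannot be called present or absent, and the labelled cell type was checked only by differences. The 5 pluripotency markers examined (Pou5f1, Sox2, Nanog, Zfp42 and Esrrb) all fell in N2B27 in both genotypes, and their values summed to between -2.21 and -1.50 on the mutant arrays in N2B27 and between -5.71 and -4.63 on the control arrays in N2B27, against 8.02 to 8.21 and 5.64 to 6.92 in ESC medium. Bmpr1a itself read -0.14 to 0.15 on the 5 mutant arrays and 0.16 to 0.76 on the 6 control arrays, a difference of -0.70 in N2B27 (adjusted p = 0.00211) and of -0.27 in ESC medium (adjusted p = 0.145, not called though the arrays did not overlap). Which part of the gene its probes cover, against the part deleted, was not tested. Mutant replicate 2 in N2B27 deviated most from its group over all genes, by a root mean square of 0.185 against 0.0774 to 0.155 for the other arrays. Fewer cells expressing a gene and less RNA per cell cannot be told apart in these bulk samples.

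Differences were tested with limma over all genes, and genes whose Benjamini-Hochberg adjusted p fell under 0.05 are referred to as called. In control cells, 7 of the 8 genes differed between N2B27 and ESC medium, where 26.1% of all genes tested were called. Nodal, Lefty1, Lefty2, Tdgf1 and Skil were lower in N2B27 (5 genes, against 13.3% of all genes called lower), and Foxh1 and Smad3 were higher (2 genes, against 12.8% called higher). In mutant cells 5 of the 8 were called, where 25.2% of all genes were: Lefty1, Lefty2 and Tdgf1 were lower (3 genes, against 10.3% called lower) and Foxh1 and Smad3 were higher (2 genes, against 14.9% called higher). The median difference over the 8 genes was -0.60 in mutant cells and -1.31 in control cells, and over all genes it was 0.01 and 0.02. Markers of other cell types differed between media as well, and their part in these differences was not tested. In mutant cells Nes (2.08), Eomes (1.10) and Thy1 (0.83) were called. The neural progenitor sums on the mutant arrays were 0.96 to 1.27 in N2B27 and -0.92 to -0.90 in ESC medium. Nes made up most of that shift, and the other neural markers, Sox1 (-0.03), Pax6 (-0.25) and Pax3 (0.16), were not called. In control cells Sox1 (0.33), Thy1 (1.10) and Col1a1 (-1.35) were called, while Nes (-0.03), Pax6 (-0.06) and Pax3 (-0.01) were not. The comparisons of media share arrays with the comparisons of genotypes given further on.

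**Figure D1:**
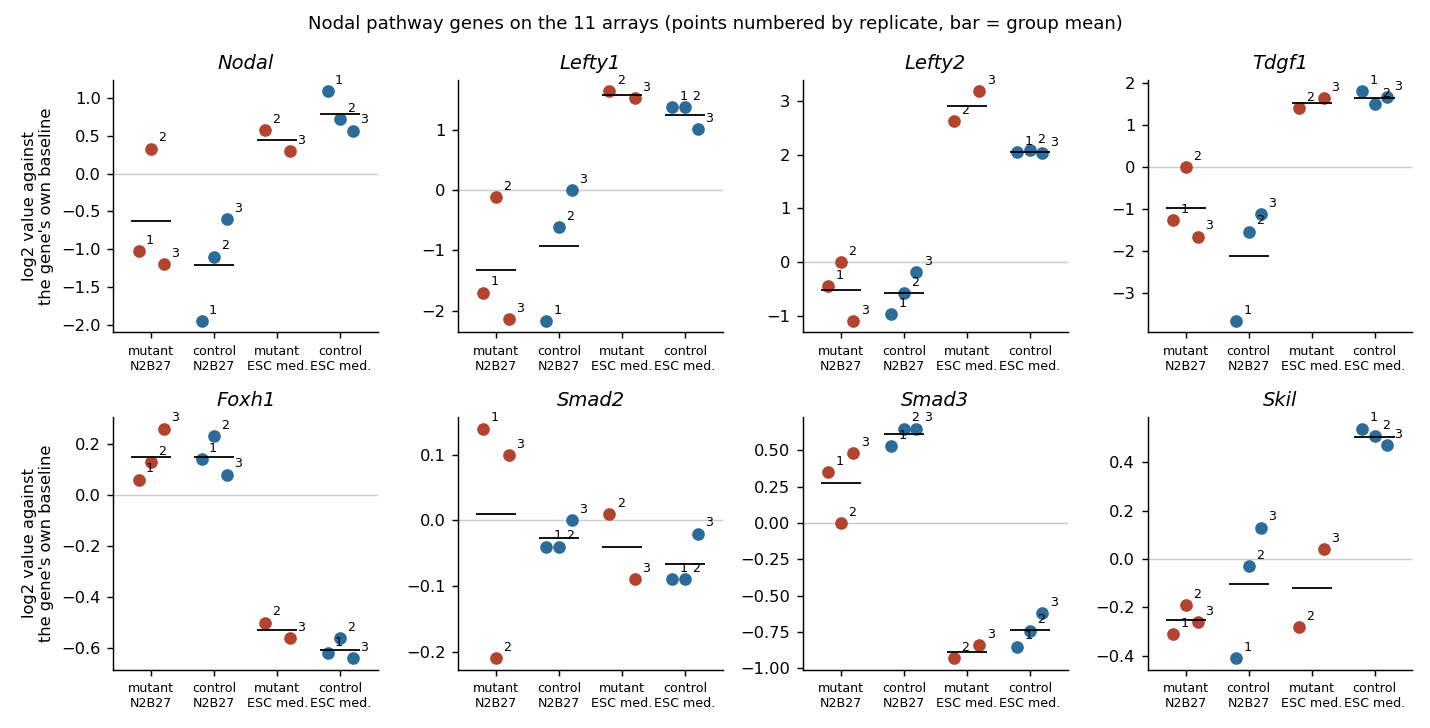
Log2 value of each gene against its own baseline (vertical axes, with a separate scale for each gene) on the 11 arrays in 4 groups (mutant and control in N2B27, then mutant and control in ESC medium); points are arrays numbered by replicate and bars are group means. The values of Lefty1, Lefty2 and Tdgf1 in N2B27 lie below all values in ESC medium, those of Foxh1 and Smad3 lie above them, and Nodal in mutant replicate 2 in N2B27, at 0.33, lies within the ESC medium range.

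Nodal, the ligand gene, read -1.03, 0.33 and -1.20 on the mutant arrays in N2B27 and -1.95, -1.10 and -0.60 on the control arrays in N2B27. In ESC medium it read 0.58 and 0.30 on the mutant arrays and 1.09, 0.72 and 0.57 on the control arrays. The control arrays of the media did not overlap, while mutant replicate 2 in N2B27 lay between the mutant arrays in ESC medium. In control cells Nodal fell by 2.01 on the log2 scale in N2B27 (SE 0.41, limma adjusted p = 0.00532), a level 4.04-fold lower. In mutant cells the difference was -1.07 (SE 0.46, adjusted p = 0.128), which was not called. Without mutant replicate 2 in N2B27 it was -1.56 (SE 0.36, adjusted p = 0.00919), and this was called. With array weights and all arrays kept it was -1.52 (SE 0.32, adjusted p = 0.0034), also called. Under the other 17 of 19 alternative settings Nodal was still not called in mutant cells. Its difference over all 19 ranged from -1.56 to -0.79.

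Tdgf1 encodes the membrane-anchored co-receptor that Nodal needs to engage its receptors. It read -1.27, 0.00 and -1.66 on the mutant arrays in N2B27 and -3.67, -1.54 and -1.13 on the control arrays in N2B27. The ESC medium values were 1.41 and 1.65 on the mutant arrays and 1.81, 1.50 and 1.67 on the control arrays. All arrays in N2B27 lay below all arrays in ESC medium, and control replicate 1 was the lowest. Tdgf1 fell by 2.51 in mutant cells (SE 0.67, adjusted p = 0.0194), a 5.68-fold lower level, and fell by 3.77 in control cells (SE 0.60, adjusted p = 0.00129), a 13.7-fold lower level. The mutant call was not kept without mutant replicate 2 (adjusted p = 0.091) or 3 (0.111) in ESC medium, or without mutant replicate 1 (0.0536) or 3 (0.0663) in N2B27, with differences of -2.62 to -2.17.

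The promoters of Nodal and Tdgf1, shown because both genes fell in control cells on leaving ESC medium, were read from the RefSeq promoter table of build GRCm38.p6, which holds 3 of the 8 genes (Nodal, Tdgf1 and Smad3). The 250 bases before the annotated start are given 5′ to 3′ in the direction of the gene, at chr10:61417722-61417971 on the plus strand for Nodal and chr9:110946159-110946408 on the minus strand for Tdgf1. Capitals mark matches, on either strand, to AATNNACA, a loose form of the FOXH1 motif, and to CAGAC, a SMAD-binding sequence.
Nodal: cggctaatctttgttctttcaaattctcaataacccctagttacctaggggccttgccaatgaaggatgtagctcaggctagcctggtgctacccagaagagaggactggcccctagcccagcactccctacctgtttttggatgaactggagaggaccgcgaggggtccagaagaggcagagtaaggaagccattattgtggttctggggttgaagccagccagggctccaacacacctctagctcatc
Tdgf1: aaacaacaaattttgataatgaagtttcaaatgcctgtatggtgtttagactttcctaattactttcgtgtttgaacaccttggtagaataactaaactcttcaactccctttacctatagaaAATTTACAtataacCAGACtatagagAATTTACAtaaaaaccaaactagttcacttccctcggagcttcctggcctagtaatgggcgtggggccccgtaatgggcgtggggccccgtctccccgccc
The Tdgf1 window holds 2 matches to AATNNACA, which begin 127 and 101 bases before the start, and 1 match to CAGAC, which begins 113 bases before it and does not overlap them. The Nodal window holds neither motif, and the same window of Smad3 holds neither. Of 32817 promoter windows of this length in the table, 10.9% hold AATNNACA and 42.2% hold CAGAC, and 0.405% hold 2 or more matches to AATNNACA together with 1 or more to CAGAC. The combination counted equals the counts found in the Tdgf1 window, so its share is not a test of that window. A match is a description of these letters and was not tested as a binding site.

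Lefty1 and Lefty2 encode closely related antagonists that bind Nodal and its co-receptor. Both lie on chromosome 1, and a non-coding gene, Gm39715, overlaps Lefty1 in the RefSeq table. How far their probes share signal was not tested. Lefty1 read -1.70, -0.12 and -2.14 on the mutant arrays in N2B27 and -2.17, -0.62 and 0.00 on the control arrays in N2B27. In ESC medium it read 1.64 and 1.52 on the mutant arrays and 1.38, 1.37 and 1.01 on the control arrays. The media did not overlap in either genotype, though Lefty1 spanned over 2 log2 units within each N2B27 group. It fell by 2.90 in mutant cells (SE 0.64, adjusted p = 0.00759), a 7.46-fold lower level, and fell by 2.19 in control cells (SE 0.57, adjusted p = 0.0177), a 4.55-fold lower level. The mutant call was not kept without mutant replicate 2 in ESC medium (adjusted p = 0.0613). The control call was not kept without control replicate 1 (0.0534) or 2 (0.0543) in ESC medium or without control replicate 1 in N2B27 (0.0513).

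Lefty2 read -0.45, 0.00 and -1.10 on the mutant arrays in N2B27 and -0.98, -0.58 and -0.19 on the control arrays in N2B27. The ESC medium values were 2.63 and 3.18 on the mutant arrays and 2.04, 2.08 and 2.02 on the control arrays. In ESC medium both mutant arrays stood above all control arrays, and all arrays in N2B27 stood below them. Lefty2 fell by 3.42 in mutant cells (SE 0.30, adjusted p = 5.39e-05), a 10.7-fold lower level, and fell by 2.63 in control cells (SE 0.27, adjusted p = 0.000135), a 6.20-fold lower level. Both calls were kept under all 19 alternative settings, with differences of -3.87 to -2.73 in mutant cells and -2.83 to -2.43 in control cells.

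Foxh1, the forkhead partner that brings SMAD2 and SMAD3 to Nodal targets, moved the other way and with little spread. It read 0.06, 0.13 and 0.26 on the mutant arrays in N2B27 and 0.14, 0.23 and 0.08 on the control arrays in N2B27. Its ESC medium values were -0.50 and -0.56 on the mutant arrays and -0.62, -0.56 and -0.64 on the control arrays. Foxh1 rose in N2B27 by 0.68 in mutant cells (SE 0.07, adjusted p = 0.000162) and by 0.75 in control cells (SE 0.07, adjusted p = 6.18e-05), folds of 1.60 and 1.69.

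The mediators Smad2 and Smad3, which carry the signal from the receptors to the nucleus, differed from each other. Smad3 read 0.35, 0.00 and 0.48 on the mutant arrays in N2B27 and 0.53, 0.65 and 0.65 on the control arrays in N2B27, against -0.93 and -0.84 on the mutant arrays and -0.85, -0.74 and -0.62 on the control arrays in ESC medium. The media did not overlap, and in N2B27 every mutant array lay below every control array. With 3 arrays in each group this order of the genotypes says little, and the share of all genes without overlap is not given here. Smad3 rose in N2B27 by 1.16 in mutant cells (SE 0.13, adjusted p = 0.000165) and by 1.35 in control cells (SE 0.11, adjusted p = 5.03e-05), folds of 2.24 and 2.55. Smad2 read -0.21 to 0.14 on the mutant arrays in N2B27 and -0.04 to 0.00 on the control arrays in N2B27, against -0.09 to 0.01 on the mutant arrays and -0.09 to -0.02 on the control arrays in ESC medium. Its differences between media were 0.05 in mutant cells (95% interval -0.17 to 0.26, adjusted p = 0.813) and 0.04 in control cells (-0.15 to 0.23, adjusted p = 0.834), and neither was called.

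Skil encodes SnoN, a nuclear repressor of SMAD-driven transcription that the pathway itself induces. It read -0.31, -0.19 and -0.26 on the mutant arrays in N2B27 and -0.41, -0.03 and 0.13 on the control arrays in N2B27. In ESC medium it read -0.28 and 0.04 on the mutant arrays and 0.54, 0.51 and 0.47 on the control arrays, so that the control arrays in ESC medium stood above all the others. In control cells Skil fell by 0.61 in N2B27 (SE 0.13, adjusted p = 0.00582). In mutant cells the difference was -0.13 (95% interval -0.45 to 0.18, adjusted p = 0.598) and the media overlapped.

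**Figure D2:**
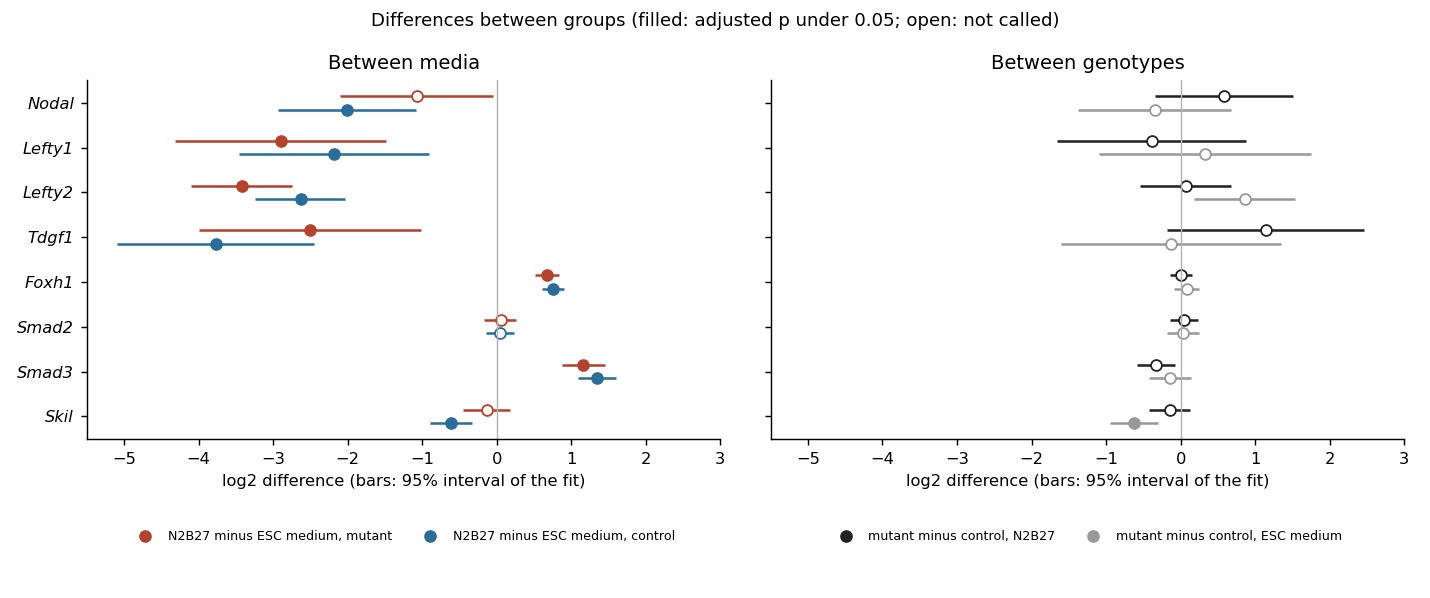
Log2 differences (horizontal axes) for each gene, between media in mutant and control cells on the left and between genotypes in N2B27 and in ESC medium on the right; bars are 95% intervals of the fit and filled points were called. Lefty2 fell by 3.42 in mutant and 2.63 in control cells between media, and Skil in ESC medium, at -0.63, is the filled point among the genotype differences.

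Whether the loss of Bmpr1a goes with another level of these genes was addressed within each medium. In ESC medium 1 of the 8 genes, Skil, was called, where 6.14% of all genes were. Skil was lower in mutant cells by a difference of -0.63 (SE 0.14, adjusted p = 0.0291), and the groups did not overlap. This call rested on each array of the comparison: leaving out any 1 of the 5 gave adjusted p-values of 0.0515 to 0.286, with differences of -0.78 to -0.47. The summed level of 5 fibroblast and feeder cell markers (Col1a1, Col1a2, Thy1, S100a4 and Postn) was -1.21 to -0.75 on the mutant arrays and 0.21 to 1.73 on the control arrays in ESC medium. Of the 5, 2 were called lower, Col1a1 (-1.32) and Col1a2 (-0.73), while Thy1 (0.08), S100a4 (0.05) and Postn (0.06) were not called. Among the pluripotency markers Zfp42 (0.88) was called higher in mutant cells, while Pou5f1 (0.10), Sox2 (0.19), Nanog (0.47) and Esrrb (0.31) were not called. The part of all these markers in the difference of Skil was not tested. Lefty2 differed by 0.86 (SE 0.30, adjusted p = 0.155) with groups that did not overlap. It was called when the fit used the compared groups alone (adjusted p = 0.0355) and with array weights (0.0323), and under quantile normalization its difference was -0.10. The groups of Lefty1 did not overlap either. With 2 and 3 arrays this says little, and the share of all genes without overlap is not given here. The other differences were -0.35 for Nodal (95% interval -1.38 to 0.67), 0.32 for Lefty1 (-1.10 to 1.75), -0.13 for Tdgf1 (-1.61 to 1.35), 0.08 for Foxh1 (-0.09 to 0.24), 0.03 for Smad2 (-0.18 to 0.24) and -0.15 for Smad3 (-0.43 to 0.14). For Nodal, Lefty1 and Tdgf1 these intervals still hold changes of more than 2-fold.

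In N2B27, 0 of the 8 genes were called by limma between the genotypes, where 5.74% of all genes were, and 1, Smad3, had an unadjusted p under 0.05. Smad3 differed by -0.33 (95% interval -0.59 to -0.08, adjusted p = 0.133). Tdgf1 differed by 1.14 (-0.19 to 2.46, adjusted p = 0.350) and Nodal by 0.58 (-0.34 to 1.50, adjusted p = 0.535), with mutant and control arrays that overlapped. Lefty1 differed by -0.39 (-1.66 to 0.88), Lefty2 by 0.07 (-0.54 to 0.67), Skil by -0.15 (-0.43 to 0.13), Foxh1 by 0.00 (-0.15 to 0.15) and Smad2 by 0.04 (-0.15 to 0.23). Between the same arrays 3 of the 5 pluripotency markers were called higher in mutant cells, Pou5f1 (0.48), Zfp42 (1.78) and Esrrb (1.30). Sox2 (0.15) and Nanog (-0.25) were not called. Of 4 neural progenitor markers 1, Nes (1.27), was called higher, while Sox1 (-0.09), Pax6 (-0.10) and Pax3 (0.14) were not called. The neural sums were 0.96 to 1.27 on the mutant arrays and -0.82 to 0.30 on the control arrays. Of the 5 fibroblast and feeder cell markers, Col1a2 was lower in mutant cells, at -0.58 (adjusted p = 0.0414). Their part in the differences above was not tested.

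Whether the response to N2B27 differed between the genotypes was tested as an interaction, that is, as the N2B27 genotype difference less the one found in ESC medium. None of the 8 genes (0 of 8) was called by limma, where 2.12% of all genes were, and 1, Skil, had an unadjusted p under 0.05. The interaction of Skil was 0.48 (95% interval 0.05 to 0.90, adjusted p = 0.291). It was 0.94 for Nodal (-0.44 to 2.32), -0.71 for Lefty1 (-2.62 to 1.19), -0.79 for Lefty2 (-1.70 to 0.12) and 1.27 for Tdgf1 (-0.72 to 3.26). The absence of a call for Nodal and Skil between media in mutant cells, beside their calls in control cells, is therefore not shown to be a difference between the genotypes. With array weights the interaction of Lefty2 was called, at -1.33 (SE 0.32, adjusted p = 0.0295), and under quantile normalization it was 0.00 (SE 0.52, adjusted p = 0.999).

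By group means, Nodal was highest in control cells in ESC medium (0.80 ± 0.26, SD, n = 3), then in mutant cells in ESC medium (0.44 ± 0.20, n = 2), mutant cells in N2B27 (-0.63 ± 0.84, n = 3) and control cells in N2B27 (-1.22 ± 0.69, n = 3). Within a medium the arrays of these neighbours overlapped and neither difference was called, though in ESC medium the means differed by more than either SD. Lefty2 ran from mutant cells in ESC medium (2.91 ± 0.39) over control cells in ESC medium (2.05 ± 0.03) to mutant (-0.52 ± 0.55) and control (-0.58 ± 0.40) cells in N2B27, and its means in N2B27 lay well within the spread of either group. Smad3 had the reverse order of media, with 0.28 ± 0.25 in mutant and 0.61 ± 0.07 in control cells in N2B27, against -0.89 ± 0.07 in mutant and -0.74 ± 0.12 in control cells in ESC medium.

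The ligand, co-receptor and antagonist genes varied far more within the N2B27 groups than most genes did. The SD over the 3 mutant arrays in N2B27 was 0.84 for Nodal, 1.06 for Lefty1, 0.55 for Lefty2 and 0.87 for Tdgf1, against a median of 0.131 over all genes, and between 99.08% and 99.97% of genes had a smaller one. Over the 3 control arrays in N2B27 it was 0.69, 1.12, 0.40 and 1.36 in the same order of genes, against a median of 0.081, and 99.27% to 99.99% of genes had a smaller one. Foxh1, at 0.10 and 0.08, lay near the middle of all genes, with 36.16% and 46.93% below it. The same shares in mutant and control cells were 17.74% and 96.98% for Skil, 84.38% and 41.91% for Smad3, and 70.53% and 9.04% for Smad2. In control cells in ESC medium the SDs of Nodal, Lefty1, Lefty2 and Tdgf1 were 0.26, 0.21, 0.03 and 0.15, against a median of 0.077. There 94.94%, 91.07%, 14.31% and 81.36% of genes had a smaller SD, so all of these but Lefty2 varied more than most genes in that group too.

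These 4 genes also ranked the N2B27 arrays alike, a pattern seen in the values and not tested. Each was highest in replicate 2, then 1, then 3 among mutant arrays and highest in replicate 3, then 2, then 1 among control arrays. Over all genes, 2.39% (477 of 19935) had this pair of orders, and 5.11% (75 of 1469) of the genes called lower in N2B27 in both genotypes did. Skil had the same order among control arrays but replicate 2, then 3, then 1 among mutant arrays, and Smad3 was lowest, at 0.00, in mutant replicate 2.

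**Figure D3:**
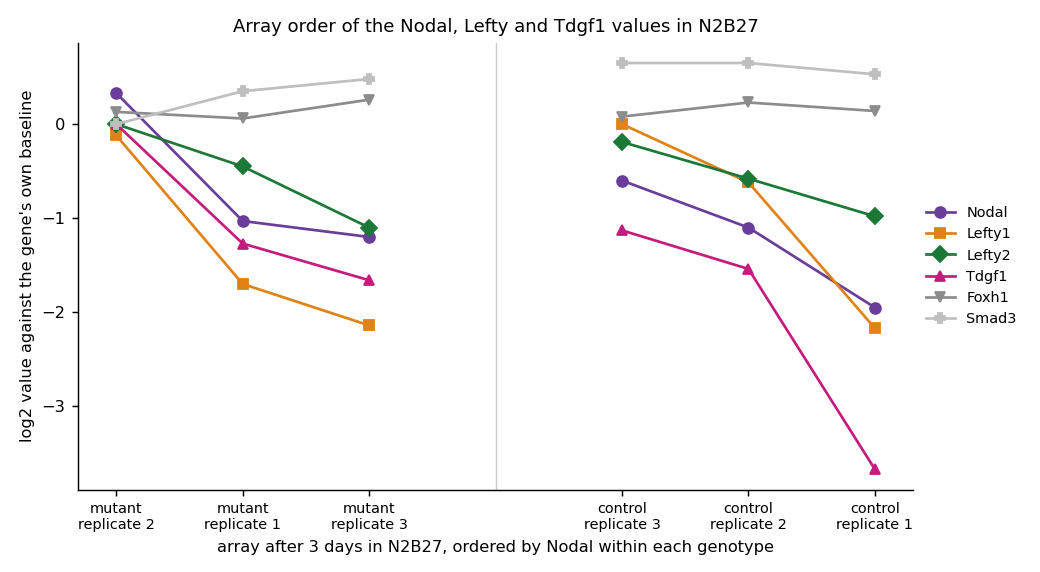
Log2 value against the gene's own baseline (vertical axis) on the 6 arrays after 3 days in N2B27 (horizontal axis, mutant left and control right, ordered by Nodal within each genotype); each line is 1 gene. Nodal, Lefty1, Lefty2 and Tdgf1 descend together in both genotypes, while Foxh1 stays between 0.06 and 0.26.

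Other markers moved with some of these arrays, and their part in the spread was not tested. The sum over 5 primitive streak and early mesoderm markers (Mixl1, Eomes, Gsc, Mesp1 and Evx1) was 2.51 in mutant replicate 2 in N2B27, 0.25 in replicate 1 and -0.14 in replicate 3, and it was -0.28, 0.00 and -0.48 on control replicates 1, 2 and 3 in N2B27, against -0.32 to 0.27 for mutant and 0.19 to 1.16 for control arrays in ESC medium. Control replicate 3, the highest control array for Nodal, both Lefty genes and Tdgf1, was thus the lowest on this sum. The sums of 6 endoderm markers (-0.58, 0.87 and -0.46) and of 4 trophoblast markers (0.18, 0.83 and 0.38, mutant replicates 1, 2 and 3) were also highest in mutant replicate 2, and on the control arrays in N2B27 they were 0.37, 0.31 and -0.19 and 0.25, 0.14 and 0.36. Of the 5 streak markers, 1 was called between media in mutant cells and 0 in control cells. The pluripotency sum was -1.50 in mutant replicate 2, -1.70 in replicate 1 and -2.21 in replicate 3, and -4.63 in control replicate 3, -5.44 in replicate 1 and -5.71 in replicate 2. Mutant replicate 2 and control replicate 3 were thus highest on that sum as well, by less than 1 log2 unit over 5 genes. Of its markers, only Nanog was highest on both of these arrays. Zfp42 and Esrrb were highest in replicate 1 of both genotypes, and Pou5f1 in replicate 2 of both. Sox2 was highest in mutant replicate 1 and control replicate 2.

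By Pearson correlation over the 11 arrays, which span both media, the genes most like Nodal were Mrpl46 (0.983), Tomm5 (0.977) and Tsn (0.975). Those most like Lefty1 were Rrp1b (0.970), Cstf2t (0.968) and Enoph1 (0.964). Lefty2 was most like Polr3b (0.993), Tcf15 (0.987) and Ddx10 (0.985), and Tdgf1 was most like Crnkl1, Pole2 and Psmg1 (0.980 each). The arrays are shared by all genes, so these values describe likeness in these samples and no more.

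In the wider pathway, 34 further genes, also chosen with earlier results of these data known, were measured in 5 role groups. Between media, 6 were higher and 5 lower in mutant cells, and 8 were higher and 5 lower in control cells, with medians of 0.15 and 0.12 (0.01 and 0.02 over all genes). The shares over all genes were 14.9% higher with 10.3% lower for mutant cells and 12.8% higher with 13.3% lower for control cells, and the counts by role below are to be read against these shares. Among the 6 ligand and processing genes, 1 rose and 3 fell in mutant cells and 1 rose and 2 fell in control cells. Gdf3, a TGF-beta family ligand gene of pluripotent cells, read 0.00, -0.04 and -0.28 on the mutant arrays in N2B27 and -0.93, -0.79 and -0.91 on the control arrays in N2B27, against 0.95 and 0.82 on the mutant arrays and 1.02, 0.39 and 0.26 on the control arrays in ESC medium. It fell by 0.99 in mutant cells (adjusted p = 0.00327) and fell by 1.44 in control cells (adjusted p = 0.000241). The convertases that can cleave the Nodal precursor went opposite ways: Furin rose by 0.68 and 0.70 in mutant and control cells (adjusted p = 0.0119 and 0.00574), and Pcsk6 fell, at -0.94 and -1.26 (0.000246 and 3.72e-05). Inhbb, an activin subunit gene, fell by 1.81 in mutant cells (adjusted p = 0.00784) and differed by -0.94 in control cells (adjusted p = 0.0854). Not called without mutant replicate 2 in ESC medium were Inhbb (0.0901) and, in mutant cells, Furin (0.141), which was also not called with the compared groups alone (0.0767).

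Among 5 receptor and co-receptor genes, 2 rose in mutant cells and 3 in control cells, and 0 fell, where 10.3% and 13.3% of all genes did. Acvr2b, a type II receptor gene, read 0.09, -0.07 and 0.23 on the mutant arrays in N2B27 and 0.29, 0.53 and 0.43 on the control arrays in N2B27, against -1.03 and -0.89 on the mutant arrays and -0.50, -0.61 and -0.55 on the control arrays in ESC medium. It rose by 1.04 in mutant cells (adjusted p = 8.51e-05) and by 0.97 in control cells (adjusted p = 7.57e-05). Acvr2a, the other type II receptor gene, rose by 0.68 and 0.47 (adjusted p = 0.00724 and 0.0257), calls not kept under 3 and 5 of 19 alternatives. Cfc1, the gene of the co-receptor Cryptic, rose by 0.20 in control cells (adjusted p = 0.0343) and was not called under 8 of 19, among them the fit with the sample number as a replicate block (0.0528). None of the 4 secreted inhibitor genes was called between media in limma (0 in mutant and 0 in control cells, with 0 and 1 at an unadjusted p under 0.05).

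Among 13 intracellular mediators and repressors, 2 rose and 2 fell in mutant cells, and 4 rose and 3 fell in control cells, where 25.2% and 26.1% of all genes were called in either direction. Smad7, an inhibitory SMAD gene that TGF-beta family signals induce, read -1.36, 0.00 and -1.05 on the mutant arrays in N2B27 and -1.42, -0.83 and -0.45 on the control arrays in N2B27, against 0.81 and 0.97 on the mutant arrays and 1.22, 1.24 and 1.16 on the control arrays in ESC medium. It fell by 1.69 in mutant cells (adjusted p = 0.00617) and fell by 2.10 in control cells (adjusted p = 0.00108), and like the Lefty genes it was highest in mutant replicate 2 and control replicate 3 in N2B27. The share of all genes highest on these arrays is not given here. Smad4, the shared partner of SMAD2 and SMAD3, rose by 0.86 and 0.81 (adjusted p = 0.000113 and 9.73e-05). Nedd4l, a ubiquitin ligase gene acting on activated SMAD2 and SMAD3, fell by 0.91 and 0.45 (adjusted p = 0.000656 and 0.0167), the control call not kept under 3 of 19 alternatives, and Trim33, of another ubiquitin ligase, rose by 0.41 in mutant cells (0.0431), not called under 15 of 19 alternatives. In control cells Smurf2, also a ubiquitin ligase gene, rose by 0.58 (adjusted p = 0.0169, not called under 2 of 19 alternatives); in mutant cells it differed by 0.46 (0.0744), which was called with the replicate block (0.0476). Trim33 was not called with that block (0.0674). Zfyve9, whose product anchors SMAD2 and SMAD3 at receptors, was not called but passed with the block in mutant (0.33, adjusted p = 0.0345) and control cells (0.40, adjusted p = 0.00738). Of 6 target genes of Nodal signalling in the embryo, Eomes rose by 1.10 in mutant cells (adjusted p = 0.0276, not called under 6 of 19 alternatives) and 0 were called in control cells, where 2 had an unadjusted p under 0.05.

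**Figure D4:**
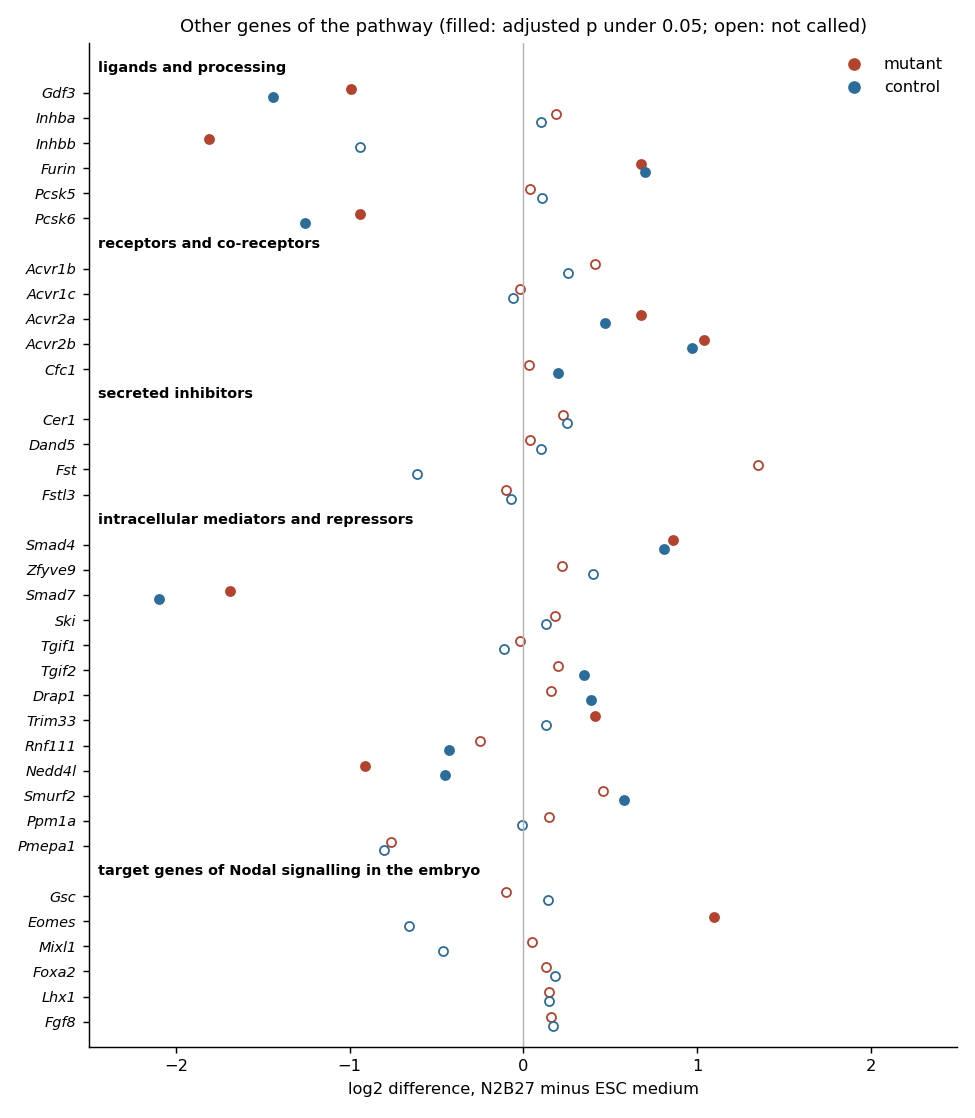
Log2 difference between N2B27 and ESC medium (horizontal axis) of the 34 other pathway genes (vertical axis, grouped by role) in mutant and control cells; filled points were called. Smad7, at -1.69 and -2.10, and Gdf3, at -0.99 and -1.44, fell in both genotypes, and Acvr2b and Smad4 rose in both.

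Between genotypes, mutant cells in ESC medium had 1 of these 34 genes higher and 1 lower, and in N2B27 they had 3 higher and 1 lower, where 6.14% and 5.74% of all genes were called. In ESC medium Nedd4l was higher by 0.63 (adjusted p = 0.0181) and Acvr2b differed by -0.41 (adjusted p = 0.0426), which became 0.01 under quantile normalization. In N2B27 Gdf3 was higher by 0.77 (adjusted p = 0.0266), Pcsk6 by 0.46 (0.0274) and Ppm1a, a phosphatase gene, by 0.32 (0.0245), and Drap1, of a corepressor that binds FOXH1, was lower, at -0.42 (0.0108). All 6 calls were lost under some alternatives, Acvr2b under 10 of 19, Pcsk6 under 6, Nedd4l and Gdf3 under 5 each, Ppm1a under 4 and Drap1 under 2. Acvr2b was not called without any 1 of the 5 arrays in ESC medium (0.0876 to 0.323), and Pcsk6 was not called without any array of the comparison other than mutant replicate 1 (0.0548 to 0.0966). Nedd4l was not called without any 1 of control replicates 2 and 3 and mutant replicates 2 and 3 in ESC medium (0.0527 to 0.132), nor Gdf3 without any array of the comparison other than mutant replicate 3 (0.0562 to 0.0933). For the interaction limma called 0 of the 34, and 3 had an unadjusted p under 0.05. With the sample number as a replicate block Eomes was called as well, between genotypes in N2B27 (1.07, adjusted p = 0.0306) and for the interaction (1.80, adjusted p = 0.0398).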

How the data were processed

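RNA from 11 samples was hybridised to Affymetrix arrays. The deposited table holds log2 values for 28815 transcript clusters. The submitters' processing notes name RMA and version 1.2 of Affymetrix Expression Console; the base of 2 is inferred from RMA's usual output. Each cluster is centred on a baseline that no label describes, so filters on dim probes, background correction and choosing the brightest cluster could not be applied, and brightness and depth play no part. Of the clusters, 21780 carry 1 symbol in the annotation, 1605 carry several and 5430 carry none. Clusters with 1 symbol were averaged per gene, which left 19935 genes.

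Group means of the 4 groups were fitted jointly with limma 3.58.1 in R 4.3.3 (lmFit, eBayes; 7 residual degrees of freedom, prior 3.02), two-sided, with Benjamini-Hochberg adjustment over all genes in each of 5 comparisons, and tested on simulated data. Intervals are 95% and unadjusted. The genes named are the 8 members, up to 4 called genes per role list and comparison with the largest difference, and the 3 genes most correlated with Nodal, Lefty1, Lefty2 and Tdgf1, leaving out predicted genes, receptors of smell and small RNAs; Bmpr1a is the targeted gene. Members and lists were chosen with earlier results of these data known. Not every gene of the lists was analysed here. Same-numbered arrays deviated together in N2B27 between genotypes (correlations across genes 0.256, 0.430 and 0.158) and between media in control cells (0.138, 0.181 and 0.131). With 2 shared numbers, the correlations were 0.0365 and 0.284 between genotypes in ESC medium and 0.215 and 0.266 between media in mutant cells. The numbers may therefore pair arrays, but differently numbered arrays were not compared, so this check cannot settle it. The reported fit leaves the number out, and only the replicate block uses it. The alternatives were the compared groups alone, a trended prior, array weights, median centring, quantile normalization, the sample number as a replicate block, single clusters, leaving out chromosomes 8, X and Y, and leaving out each array.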

Additional observations from a re-analysis of the deposited data

How the results depend on the processing

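The numbers of the 8 genes called were recomputed under 8 other settings (7 for the interaction) and without each of the 11 arrays. In ESC medium the 1 gene called between genotypes became 2 with array weights and 2 with the compared groups alone, and ranged from 0 to 1 without an array; between media in mutant cells the 5 ranged from 3 to 6, and with array weights the interaction had 1. In the other settings, and for the media in control cells and the genotypes in N2B27, the counts stayed within 1.5 times. Leaving out a mutant array in ESC medium leaves 1, which is assumed to vary like the other groups. The replicate block changed no call of the 8 genes (interaction of Smad2 -0.01); the calls it changed among the other genes stand beside them. Differences that turned were not called on either side. Under quantile normalization, which equalises the spread of centred values, they were -0.13 for Lefty1, -0.10 for Lefty2 and 0.24 for Smad3 between genotypes in ESC medium, -0.11 for Lefty2 and -0.01 for Foxh1 in N2B27, and -0.02 for the interaction of Smad2. With array weights they were -0.05 for Nodal and -0.48 for Lefty2 in N2B27 and 0.02 for the interaction of Foxh1. Without 1 array, the genotype difference in N2B27 ranged from -0.05 to 0.05 for Foxh1, -1.01 to 0.08 for Lefty1, -0.19 to 0.36 for Lefty2 and -0.02 to 0.15 for Smad2, that of Smad2 in ESC medium from -0.02 to 0.08, the medium difference in mutant cells from -0.29 to 0.02 for Skil and -0.02 to 0.16 for Smad2, and the interaction of Smad2 from -0.05 to 0.12. The cause of these shifts was not tested. Over all genes, array weights changed the calls from 1224 to 3138 and from 1144 to 2882 between genotypes in ESC medium and N2B27, from 5018 to 7689 between media in mutant cells, and from 422 to 1782 for the interaction. Quantile normalization gave 498 in ESC medium and 183 for the interaction, and the replicate block 657 for the interaction. Leaving out chromosomes 8, X and Y, which tests fewer genes, gave 766 and 610 between genotypes. Between media it gave 4480 in mutant cells and 4761 in control cells (5018 and 5205 with all genes), a smaller relative fall than between genotypes. The shares of 6.14% and 5.74% given above for genotypes include genes of these chromosomes. Whether the lines differ in these chromosomes was not tested. The compared groups alone gave 397 between genotypes in N2B27. Without 1 array the calls ranged from 304 (without mutant replicate 2 in ESC medium) to 1707 and 454 (without control replicate 3 in N2B27) to 1251 between genotypes in ESC medium and N2B27, from 2720 to 5956 (all arrays 5018) between media in mutant cells, and from 59 to 633 for the interaction, the lowest of both without mutant replicate 2 in ESC medium. Of the 34 other genes, array weights called 8 between genotypes in ESC medium (2 with the settings reported), quantile normalization 0, and the compared groups alone 1 in N2B27 (4 as reported) and 7 between media in mutant cells (11). Without 1 array these counts ranged from 0 (without either mutant array or 1 of control replicates 2 and 3) to 3 in ESC medium, from 0 (without control replicate 3; 1 without control replicate 1, and 2 without replicate 2 of either genotype) to 4 in N2B27, from 6 (without mutant replicate 2 in ESC medium) to 12 between media in mutant cells, and from 0 to 1 for the interaction. The small number of arrays limits all of these.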

Other observations

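The following genes were picked after their values were seen. Fst, which encodes the activin antagonist follistatin, read 0.27, 2.73 and 0.12 on the mutant arrays in N2B27 and -0.19, 0.07 and -0.32 on the control arrays in N2B27, against -0.33 and -0.30 on the mutant arrays and 0.08, 0.96 and 0.34 on the control arrays in ESC medium. It was not called between genotypes in N2B27 (log2 difference 1.19, limma adjusted p = 0.292), and mutant replicate 2, the highest mutant array in N2B27 for Nodal and both Lefty genes, was highest here too. Eomes, a T-box factor gene of the primitive streak, read 0.91, 1.35 and 0.00 on the mutant arrays in N2B27 and -0.50, -0.23 and -0.25 on the control arrays in N2B27, against -0.32 and -0.37 on the mutant arrays and 0.10, 0.66 and 0.25 on the control arrays in ESC medium. The genotypes did not overlap in either medium and lay in opposite orders. With 2 or 3 arrays in a group this says little, and the share of all genes without overlap is not given here. Eomes had a genotype difference of 1.07 in N2B27 (adjusted p = 0.0549) and an interaction of 1.76 (adjusted p = 0.0672), neither called. With the sample number as a replicate block both were called, at 1.07 (adjusted p = 0.0306) and 1.80 (adjusted p = 0.0398).

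Pmepa1, a feedback inhibitor gene that TGF-beta family signals induce, spanned a wide range in N2B27, with -1.23, 0.02 and -1.05 on the mutant arrays and -1.21, -0.08 and 0.30 on the control arrays. In ESC medium it read 0.10 and -0.10 on the mutant arrays and 0.44, 0.58 and 0.39 on the control arrays. Its differences between media, -0.76 in mutant cells (adjusted p = 0.261) and -0.80 in control cells (adjusted p = 0.172), were not called, and as for Nodal, Lefty1, Lefty2 and Tdgf1 the highest N2B27 arrays were mutant replicate 2 and control replicate 3. For Fst and Pmepa1, the share of all genes highest on the same arrays is not given here. Mutant replicate 2 in N2B27 was also the array that deviated most from its group over all genes.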
